A study of Homo sapiens with 15 samples.

Results

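RNA recovered with an antibody against Brg1 was compared with RNA recovered with non-specific IgG in 22Rv1, an established human prostate cancer cell line. The comparison takes 5 of the 15 samples of the series, 2 Brg1 libraries (A and B) and 3 IgG libraries (A, B and C). The deposited normalised values were turned back into whole reads, and a row of the table entered when its reads summed over the IgG libraries came to 30 or more. That left 17464 of 22542 rows, 8981 of them named with the suffix .primary and 8483 without it (called plain here). The meaning of the suffix is not given in the sources used here. Each value below is a share of a library in rpm, the row's reads for every 1000000 reads of that library, so a difference is one of composition and says nothing of how much RNA was recovered.

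Brg1, encoded by SMARCA4, is a catalytic ATPase of the SWI/SNF complexes, which use ATP to slide or evict nucleosomes. RNA immunoprecipitation recovers the RNA that stays attached to a protein when an antibody takes that protein out of a cell lysate, and an IgG that recognises no particular protein measures what sticks to beads and tube. The study behind the series is about SCHLAP1, a long non-coding RNA of prostate cancer, and its relation to SWI/SNF. This comparison asks which RNAs take a larger share of the Brg1 precipitate than of the IgG background. Fixation was in 0.3% formaldehyde for 30 minutes at 4 degrees C, per the labels, and libraries were stranded and depleted of ribosomal RNA. No treatment or genetic change is named for any of these groups. The other 22Rv1 libraries, 2 of input RNA and 2 precipitated with an antibody against Sfpq, an RNA-binding splicing protein, are given beside the results as values. LNCaP, a further established prostate cancer line with 2 Brg1 and 2 IgG libraries in a table of its own, is used likewise.

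Depth was very unequal. Recovered reads numbered 47531308 and 45259907 in Brg1 A and B, against 4424105, 1751329 and 490879 in IgG A, B and C. One read therefore stood for 0.0210 rpm in Brg1 A and for 2.04 in IgG C. Of the 22542 rows, 27 and 15 had no read in the Brg1 libraries, and 1649, 4320 and 4761 had none in IgG A, B and C. A count of 0 in IgG C allows a share of up to 6.11 rpm (3 reads), and this limit covers counting error only. Nothing in the labels says that the libraries of a group came from separate cultures, so p-values measure only the spread between these samples. Of 8 marker genes of prostate luminal cells, 4 had a plain row (FOXA1, HOXB13, KRT18 and KRT8). They summed to 39.7 and 57.2 rpm in Brg1 and 67.4 to 134 in IgG. Of 4 fibroblast markers only COL1A1 had a plain row, with 15.7 and 15.2 rpm in Brg1 and 14.5, 0 and 12.2 in IgG. Markers of leukocytes, erythroid cells, endothelium, liver and neural cells had no plain row.

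The Brg1 libraries were near copies of each other and the IgG libraries were not. Across the compared rows the Spearman correlation was 0.977 between the Brg1 libraries and 0.330, 0.424 and 0.385 between IgG A and B, A and C, and B and C. These are correlations across rows of libraries of unequal depth, and rows are not replicates. The median row had a standard deviation (SD) of 0.115 on the log2 scale within Brg1 and 1.76 within IgG. With 1 rpm added to each share, the highest IgG value was more than 10 times the lowest in 8746 compared rows (50.1%). The same held for 0.0973% of rows in Brg1.

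The IgG background was patchy from row to row. On the log2(rpm + 1) scale the Brg1 mean was more than 4 times the IgG share in 2010 rows against IgG A, in 6625 against IgG B and in 3813 against IgG C. For 7562 rows this held against 1 IgG library, for 2413 against 2, and for 20 rows against all 3. The order did not follow depth, since IgG B had more reads than IgG C and also more such rows. Among the 4563 rows with a Brg1 mean of at least 50 rpm, 210, 986 and 732 were in that state against IgG A, B and C. The input libraries were more than 4 times below Brg1 in 211 and 267 of all compared rows.

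**Figure D1:**
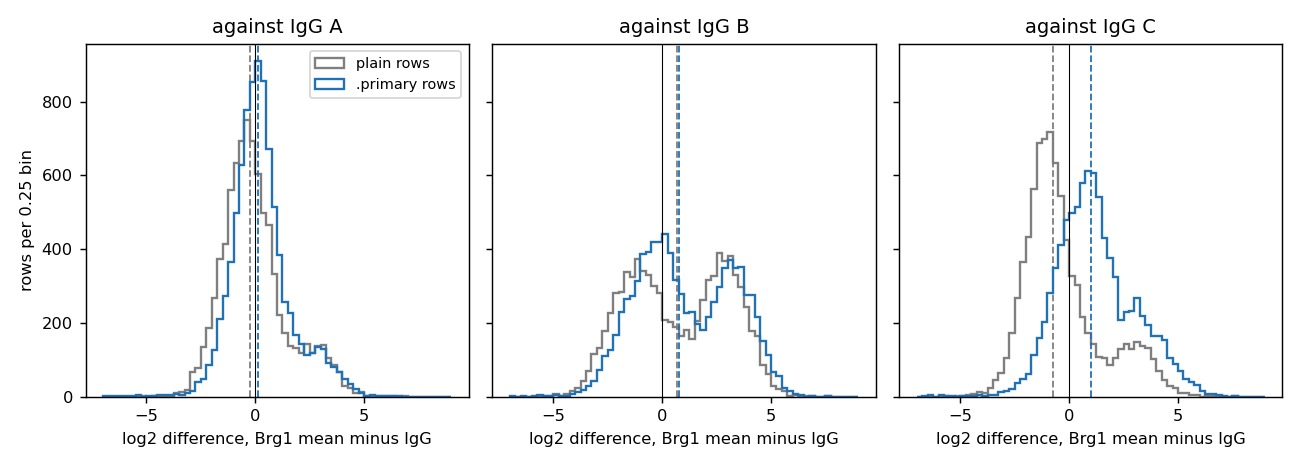
Number of rows in each 0.25-wide bin of the log2 difference between the Brg1 mean and a single IgG library, for plain rows (grey) and .primary rows (blue), with the medians dashed. Against IgG B both classes show a second group of rows near a difference of 3, and against IgG C the medians of plain rows (-0.73) and .primary rows (1.02) lie on opposite sides of 0.

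Against this spread, few rows separated the groups. In limma, on log2(rpm + 1), 30 of 17464 rows passed a Benjamini-Hochberg adjusted p of 0.05, which is 0.172% of those tested. One row was higher in Brg1, 0.00573%, and it was SMARCA4 itself. The other 29, 0.166%, were lower in Brg1, and they fell into mitochondrially encoded RNAs, a set of .primary rows, and 2 further plain rows. Of the 30 called rows, 29 lay among the 987 rows with 1000 or more IgG reads, SMARCA4 and 28 of the rows called lower. At an unadjusted p under 0.05 there were 568 rows, 295 higher and 273 lower. Log2 differences are on the log2(value + 1) scale, which understates the change of rows with low shares. The median row lay at 0.54. With averaging on the scale of reads it lay at -0.13 (edgeR) or -0.29 (DESeq2), so a list's median is read below against that of all rows. No row was called without IgG B (2167 at an unadjusted p under 0.05), in edgeR with library totals or TMM scaling (411 and 369), or in limma without the variance trend (295). Leaving out IgG A gave 917 higher and 80 lower, and leaving out IgG C gave 1 higher and 4 lower.

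**Figure D2:**
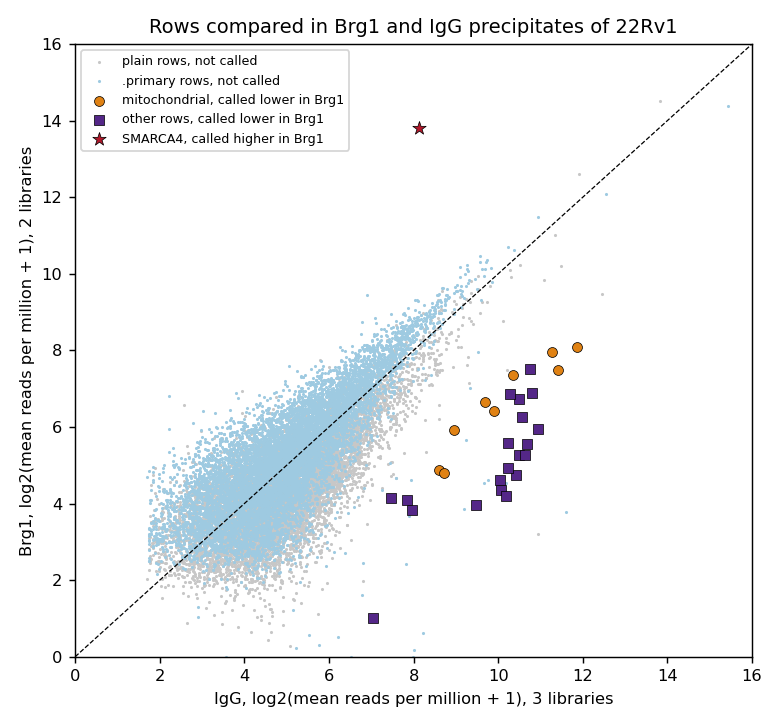
Mean share in the 2 Brg1 libraries (vertical) against mean share in the 3 IgG libraries (horizontal), each as log2(mean rpm + 1), for the compared rows; the dashed line marks equal shares. SMARCA4 lies alone far above the line, and the 29 rows called lower lie below it at IgG shares that are high for their Brg1 share.

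SMARCA4 RNA was the one RNA called higher with Brg1. The gene lies on chromosome 19 at 10961030 to 11062273 (GRCh38.p14, RefSeq) and is protein coding. Its plain row took 12446 and 16356 rpm in Brg1 A and B (591574 and 740276 reads). In IgG A, B and C it took 262, 265 and 308, from 1161, 464 and 151 reads. Every Brg1 library stood above every IgG library, with no overlap, and the IgG values were alike. The input libraries gave 310 and 296 and the Sfpq libraries 486 and 492, so the row was raised in no other kind of 22Rv1 library to this degree. The mean was 14401 ± 2765 (SD, n = 2) against 278 ± 25.4 (SD, n = 3), a ratio of 51.7, and the log2 difference was 5.68 (standard error (SE) 0.57, limma adjusted p = 8.79e-05). It ran from 5.24 to 6.02 over the alternatives. The adjusted p was 0.0691 and 0.0649 in edgeR with library totals and with TMM scaling, 0.983 in limma without the variance trend, and 0.0871 and 0.366 in limma without IgG A and without IgG B. In LNCaP the same row held 12763 and 10406 rpm in Brg1 and 7212 and 194 in IgG, the last 2 from 160 and 9 reads. No .primary row of SMARCA4 was compared.

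No RNA of another SWI/SNF subunit was called. Of 42 further rows of subunit genes that were compared, 23 plain and 19 .primary, the lowest adjusted p in limma was 0.996, and with SMARCA4 3 of 43 rows had an unadjusted p under 0.05. The family's median difference was 0.22, beside 0.54 for all rows. Both Brg1 libraries were above all IgG libraries in 6 of them, the reverse held in 3, and 33 overlapped. These are 14.3% and 7.14% of the 42, near the 14.8% and 9.23% of all compared rows. SMARCA2, which encodes the alternative ATPase, held 51.2 and 60.7 rpm in Brg1 and 50.9, 8.56 and 44.8 in IgG. The Brg1 values were just above the highest IgG value, and IgG B was far below the other libraries (difference 1.003, SE 0.94). SMARCC1, a scaffold subunit, held 258 and 292 in Brg1 and 157, 376 and 338 in IgG, and the groups overlapped. ARID1A, a DNA-binding subunit of the BAF form, held 141 and 154 in Brg1 and 179, 248 and 377 in IgG, so all IgG libraries were higher. In LNCaP it lay on the other side, with 173 and 195 in Brg1 and 135 and 86.4 in IgG, the last 2 from 3 and 4 reads.

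Of the family's 19 .primary rows, 5 (26.3%) had both Brg1 libraries on top, near the 23.9% of all .primary rows, and 1 had all IgG libraries on top. ARID1B.primary held 606 and 640 rpm in Brg1 and 391, 605 and 141 in IgG. BCL7A.primary held 79.3 and 76.0 in Brg1 and 17.6, 2.28 and 55.0 in IgG, a difference of 2.38 (SE 1.18). BCL11B.primary held 97.3 and 101 in Brg1 and 41.8, 36.5 and 28.5 in IgG. In each of these the groups did not overlap and the adjusted p was 0.996. The plain row of BCL11B ran in the opposite direction, with 0.0842 and 0.354 in Brg1 and 47.9, 46.8 and 4.07 in IgG. SS18.primary, of another subunit gene, was the .primary row with IgG on top, at 104, 87.4 and 83.5 against a Brg1 mean of 51.8 rpm.

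**Figure D3:**
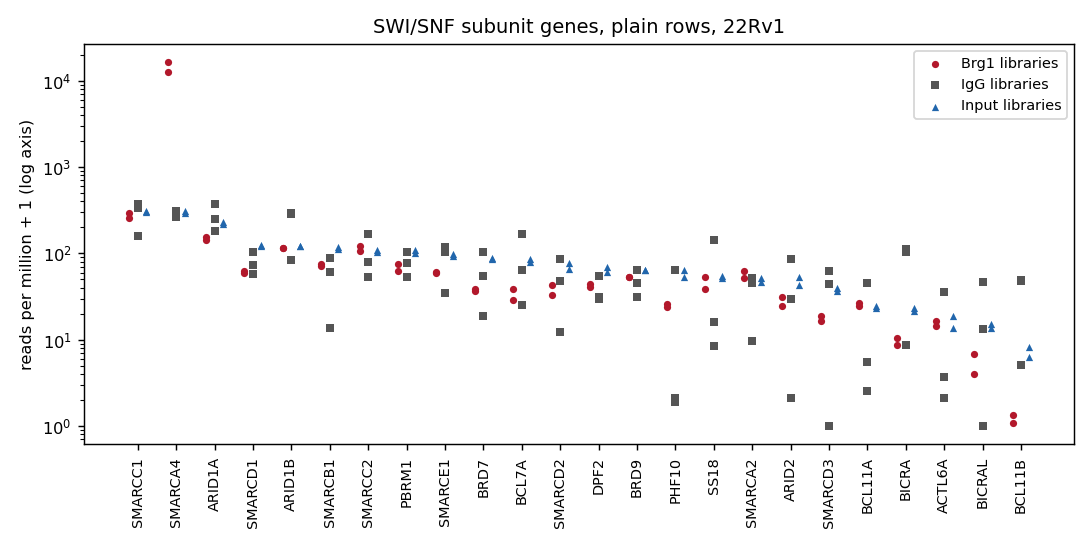
Shares in rpm plus 1 (log axis) of the compared plain rows of SWI/SNF subunit genes in each Brg1, IgG and input library of 22Rv1, ordered by input level. SMARCA4 stands apart in Brg1 (12446 and 16356), while the IgG values of most other genes spread to both sides of the Brg1 values.

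The rows called lower in Brg1 were led by a set of .primary rows. There were 18 of them, 13 of named genes and 5 under clone names, and in each the 3 IgG libraries were above both Brg1 libraries. GIMD1.primary (chromosome 4, 106357392 to 106368778, a small GTPase-like gene) held 15.7 and 19.2 rpm in Brg1 and 511, 1011 and 1960 in IgG. The log2 difference was -5.78 (SE 0.56, limma adjusted p = 8.79e-05). CDK15.primary, of a cyclin-dependent kinase gene, held 16.3 and 22.8 in Brg1 and 430, 983 and 1801 in IgG. TGFA.primary, of the gene for the growth factor TGF-alpha, held 39.6 and 35.5 in Brg1 and 737, 1064 and 2958 in IgG. All 3 rows were lowest in the Brg1 libraries and highest in IgG C.

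LINC01374, IGSF8, KCNH5, PCDH10, CNTNAP3 and ELOVL6 gave .primary rows that were likewise below every IgG library in Brg1 and highest in IgG C. Input was above Brg1 for IGSF8 and KCNH5, overlapped with it for LINC01374 and PCDH10, and was below it for CNTNAP3 (73.1 and 78.3 rpm against 106 and 103) and ELOVL6 (86.8 and 80.3 against 113 and 117). KCNH5 encodes a potassium channel, PCDH10 a protocadherin and ELOVL6 a fatty acid elongase. Their log2 differences were -5.37, -5.14, -5.02, -4.86, -3.60 and -3.19. LENG8, a plain row, held 180 and 184 rpm in Brg1 and 1027, 1928 and 2251 in IgG, with a difference of -3.17 (SE 0.52). These genes have no role in common that the lists used here describe.

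For most of the called rows the number of reads changed far less than the share. GIMD1.primary had 744 and 870 reads in Brg1, 2259, 1771 and 962 in IgG, 1823 and 642 in input, and 1610 and 1815 in Sfpq. Its shares in input were 38.1 and 40.0 rpm and in Sfpq 226 and 247, between those of Brg1 and IgG. Over the 18 .primary rows the median number of reads was 1568 and 1542 in Brg1 and 2586, 1914 and 994 in IgG, while the totals of these libraries ran from 490879 to 47531308. Their summed share was 0.0804% and 0.0805% of reads in Brg1, 1.11%, 1.92% and 3.11% in IgG, 0.0788% and 0.0785% in input, and 0.377% and 0.390% in Sfpq. In 23 of the 29 rows called lower the share ran IgG C, then B, then A, the reverse order of library totals. In 15 of those 23 every IgG share was also above every Sfpq share and every Sfpq share above every input share. Library total moved with the shares of these rows, and its part in the result was not tested.

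**Figure D4:**
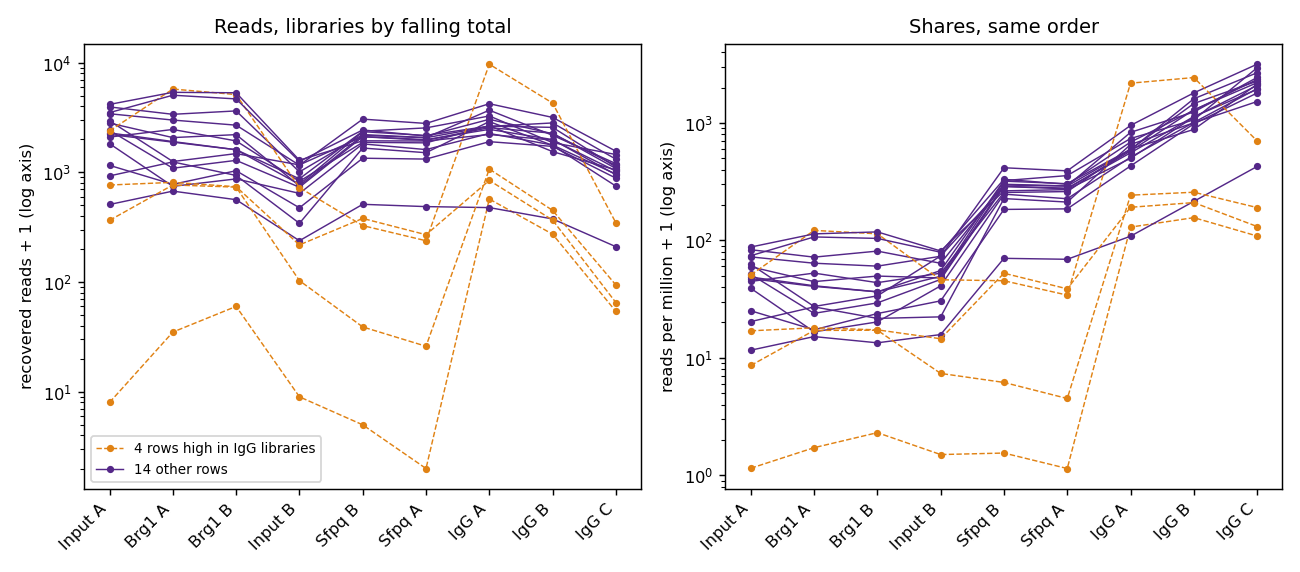
Recovered reads plus 1 (left) and rpm plus 1 (right), both on log axes, of the 18 .primary rows called lower in Brg1, with the 22Rv1 libraries ordered by falling total. The 14 rows in purple hold similar read numbers in libraries of very different size, so their shares climb to the right. In rpm (right), the 4 rows in orange (C19orf18, COL5A2, COL18A1 and LINC01184) are highest in the IgG libraries and lower in Sfpq.

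The 4 called .primary rows drawn in orange, singled out after their values were seen, had another shape. C19orf18.primary (chromosome 19, 57958437 to 57974534) held 0.715 and 1.3 rpm in Brg1 and 129, 155 and 108 in IgG. It stayed at or under 0.544 in the input and Sfpq libraries, and its log2 difference was -6.03 (SE 1.11, limma adjusted p = 0.0294). COL5A2.primary, of a fibrillar collagen gene, held 16.1 and 16.2 in Brg1, 242, 256 and 189 in IgG, with Sfpq at 3.5 and 5.17. COL18A1.primary, of the collagen gene that gives endostatin, held 17.0 and 16.3 in Brg1 and 191, 209 and 130 in IgG. Its Sfpq shares, 37.7 and 51.5, were above those of Brg1. LINC01184.primary held 121 and 113 in Brg1, 2184, 2439 and 703 in IgG, with Sfpq at 33.2 and 44.3. In these 4 rows IgG C, the smallest library, had the lowest of the IgG shares, and input was no higher than Brg1.

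The LNCaP libraries, which had no part in the calls, showed the same side for nearly all of these rows. In LNCaP both IgG libraries were above both Brg1 libraries for 17 of the 18 .primary rows, against 14.5% of the compared .primary rows found in that table. The exception was AC006504.7.primary, with 813 and 708 rpm in Brg1 and 0 and 43.2 in IgG. C19orf18.primary held 6.12 and 8.37 in LNCaP Brg1 and 3155 and 1793 in IgG, from 70 and 83 IgG reads. LINC01184.primary held 100 and 130 in Brg1 and 23485 and 16826 in IgG. The LNCaP IgG libraries held 22184 and 46297 reads in all, so these shares rest on small numbers. The LNCaP Brg1 libraries held 6367908 and 6927440, and the part of library total was not tested there either. In LNCaP IgG A and B 68.3% and 55.8% of rows had no read, and such rows cannot have both IgG libraries on top. The tables were scaled separately, and no test was made across them.

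RNAs of the mitochondrial genome took a smaller share of Brg1 than of IgG. All 18 mitochondrially encoded rows had every IgG library above both Brg1 libraries, where 9.23% of all compared rows did, and 9 of the 18 were called lower, against 0.166% of all. Their summed share was 0.199% and 0.227% of reads in Brg1 and 1.23%, 2.14% and 2.87% in IgG. Input gave 1.62% and 1.94% and Sfpq 1.67% and 1.66%, so Brg1 was the low group and IgG overlapped with both of the others. The median log2 difference was -3.28, and the members ranged from -4.78 to -2.62.

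The called rows were MT-ND1, MT-ND2, MT-ND3, MT-ND4, MT-ND4L and MT-ND5 of complex I, MT-CYB of complex III, MT-CO3 of complex IV and MT-ATP6 of the ATP synthase. MT-ND4 held 170 and 183 rpm in Brg1, 1558, 2809 and 3808 in IgG, with input at 1723 and 2241. Its log2 difference was -3.85 (SE 0.55, limma adjusted p = 0.00314). MT-CO1 held 686 and 744 in Brg1, 3480, 5311 and 8118 in IgG, with input at 5266 and 5993, but its difference of -2.89 (SE 0.71) did not pass, with an adjusted p of 0.292. MT-TH, a transfer RNA, held 2.88 and 2.94 in Brg1 and 73.2, 114 and 143 in IgG (adjusted p = 0.0981). MT-RNR2, a mitochondrial ribosomal RNA, held 0.105 and 0.597 in Brg1 and 46.3, 6.85 and 14.3 in IgG.

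The number of mitochondrial rows called depended on single libraries. It was 1 and 2 without Brg1 A and B, 12 without IgG A and 0 without IgG B or IgG C, and 0 in both edgeR fits and in limma without the variance trend. All 18 differences were negative under each of these. Of 97 compared rows of nuclear genes of oxidative phosphorylation, 0 were called in limma (1 at an unadjusted p under 0.05), and their median was 0.59 beside 0.54 for all rows. In LNCaP, 2 of the 9 called mitochondrial rows (22.2%) had both IgG libraries above both Brg1 libraries, where 9.59% of the compared rows found in that table did.

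**Figure D5:**
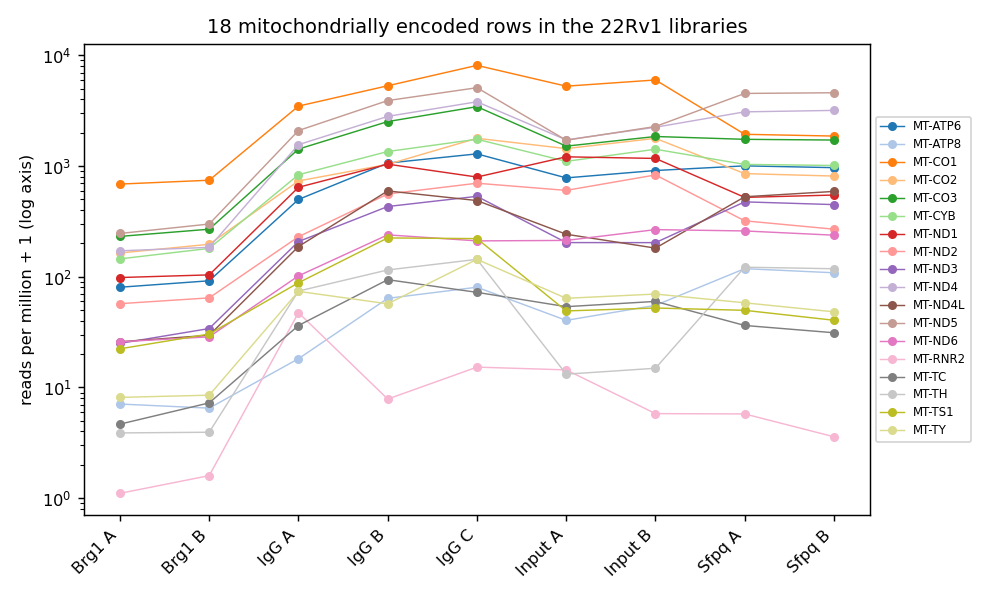
Shares in rpm plus 1 (log axis) of the 18 mitochondrially encoded rows in each 22Rv1 library, 1 line per gene. The lines are lowest in Brg1 A and B, where the summed share is 0.199% and 0.227%, and higher in every IgG, input and Sfpq library, where it is 1.23% to 2.87%.

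Rows with the .primary suffix made up more of the Brg1 libraries than of the IgG libraries on average, but 1 IgG library carried much of this. Their share of reads was 65.7% and 62.7% in Brg1, 62.5%, 59.5% and 39.1% in IgG A, B and C, 38.2% and 34.8% in input, and 27.5% and 33.4% in Sfpq. Both Brg1 values were above all IgG values, IgG A being just under Brg1 B, and IgG C lay close to the input. The means were 64.2% ± 2.08 (SD, n = 2) and 53.7% ± 12.7 (SD, n = 3), a difference of 10.5 percentage points. An exact two-sided permutation test over the 5 libraries gave p = 0.2, the smallest value it can give here. Without IgG C the difference was 3.20 points.

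Row by row, the non-overlapping plain rows were more often on the IgG side and the non-overlapping .primary rows on the Brg1 side. Both Brg1 libraries were above all 3 IgG libraries in 2577 rows, 14.8% of those compared, and all 3 IgG libraries were above both Brg1 libraries in 1612, 9.23%. Among .primary rows the counts were 2150 (23.9%) and 335 (3.73%), and among plain rows 427 (5.03%) and 1277 (15.1%). Without IgG C they were 2695 and 1144 for .primary rows and 1591 and 1713 for plain rows. By the sign of the difference, 81.9% of .primary rows and 55.0% of plain rows were on the Brg1 side. The median log2 difference was 0.83 for .primary rows and 0.14 for plain rows. The plain median turned to -0.56 in edgeR with library totals, -0.70 in DESeq2, -0.42 with quantile normalization and -0.29 without IgG B, while the .primary median ran from 0.092 to 1.14 over the alternatives. For 5452 genes both rows were compared, and the .primary row had the more positive difference in 3724 of them (68.3%).

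Among 33 .primary rows of very long genes, 16 (48.5%) had both Brg1 libraries on top and 2 had all IgG libraries on top, beside 23.9% and 3.73% of all .primary rows. The median difference of the 33 was 0.66, below the 0.83 of all .primary rows. Of the 629 compared .primary rows of genes spanning 300 kb or more, 36.1% had both Brg1 libraries on top. The same held for 43.7% of the 591 .primary rows with an input mean of 100 rpm or more. FTO.primary held 419 and 394 rpm in Brg1 and 236, 89.6 and 175 in IgG, and WWOX.primary held 250 and 266 in Brg1 and 113, 207 and 75.4 in IgG. Their differences were 1.39 (SE 0.52) and 1.09 (SE 0.54), and neither passed (adjusted p = 0.996). The 28 plain rows of the same list had a median of 0.18, beside 0.14 for all plain rows, with 16 positive. Of these, 3 had both Brg1 libraries on top and 6 (21.4%) all IgG libraries on top. TRAPPC9, a subunit gene of a vesicle tethering complex, held 32.1 and 31.6 in Brg1 and 22.8, 0.571 and 22.4 in IgG. Plain rows of MED13L and ATXN1 were higher in IgG, at 100, 184 and 218 and at 67.4, 180 and 126, against Brg1 values of 37.1 and 53.0 and of 48.8 and 40.3.

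Of 27 rows of prostate luminal genes, none was called in limma and 2 had an unadjusted p under 0.05. All 12 .primary rows had positive differences, with a median of 1.95, and 4 had both Brg1 libraries on top, where 81.9% of all .primary rows were positive and 23.9% had Brg1 on top. The 15 plain rows had a median of -0.50, and 4 had all IgG libraries on top, as did 15.1% of all plain rows. ZBTB16.primary, of a transcriptional repressor gene, held 274 and 277 rpm in Brg1 and 139, 67.4 and 69.3 in IgG, with a difference of 1.66 (SE 0.53, adjusted p = 0.996). HOXB13, a plain row of a prostate lineage transcription factor, held 5.51 and 11.8 in Brg1 and 17.0, 63.4 and 44.8 in IgG.

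SCHLAP1 was not separated from the background in 22Rv1. Its .primary row (chromosome 2, 180692104 to 180916939) held 62.4 and 67.5 rpm in Brg1 and 40.5, 20.6 and 65.2 in IgG, from 179, 36 and 32 IgG reads. IgG C lay between the Brg1 libraries and the others lay below them. The log2 difference was 0.76 (SE 0.77, adjusted p = 0.996), and over all alternatives it ran from 0.33 to 1.14. Input held 16.6 and 13.8, so both the Brg1 and the IgG shares were above it. In LNCaP the row held 3917 and 4375 in Brg1 and 1037 and 1188 in IgG, the last 2 from 23 and 55 reads, so both Brg1 libraries were above both IgG libraries there.

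The list of nuclear long non-coding RNAs, SCHLAP1 among them, split both ways. None of its 17 compared rows was called in limma (3 at an unadjusted p under 0.05). Their median was 0.37, beside 0.54 for all rows. It was -0.25 for the 10 plain rows and 0.49 for the 7 .primary rows, beside 0.14 and 0.83 for all rows of each class. MALAT1, a speckle RNA, held 6593 and 5801 rpm in Brg1 and 4616, 4420 and 2449 in IgG, with input at 2614 and 2738. Brg1 was above IgG in every library, with a difference of 0.75 (SE 0.89). KCNQ1OT1, the imprinted antisense RNA, held 414 and 392 in Brg1, 251, 254 and 69.3 in IgG, with input at 65.1 and 65.8, a difference of 1.29 (SE 0.57). In LNCaP it lay on the other side, with 292 and 296 in Brg1 and 586 and 410.4 in IgG. Whether strand was used in counting is not given in the sources used here, so its reads and those of KCNQ1 cannot be told apart. NEAT1, the scaffold of paraspeckles, held 1095 and 1088 in Brg1 and 1478, 1536 and 739 in IgG, and the groups overlapped.

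TUG1 and NORAD, also long non-coding RNAs, lay the other way. TUG1 held 80.9 and 80.4 rpm in Brg1 and 145, 193 and 326 in IgG, a difference of -1.36 (SE 0.53). NORAD, which is largely cytoplasmic, held 70.0 and 75.1 in Brg1 and 252, 108 and 805 in IgG, a difference of -1.94 (SE 0.67). Each of these rows had an adjusted p of 0.996 in limma, as did MALAT1, KCNQ1OT1 and NEAT1.

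Summed over the list, small structured RNAs were below input in both precipitates. Together they took 0.637% and 0.549% of reads in Brg1 and 0.803%, 0.563% and 1.32% in IgG. The input libraries gave them 6.74% and 7.54%, and RN7SL1, RN7SL2 and RN7SK made up 89.3% and 91.4% of those input reads on compared rows. Of 16 compared rows, 14 were below both input libraries in both Brg1 libraries and 10 also in all IgG libraries. SCARNA2, which guides modification of other small RNAs, was among the exceptions, with 212 and 273 rpm in Brg1 beside 239 and 295 in input, and IgG at 248, 78.2 and 566. None of the 16 was called between Brg1 and IgG in limma, and 0 had an unadjusted p under 0.05. Row by row, 13 of the 16, all of them plain rows, had positive differences, with a median of 0.85. Over all plain rows the median was 0.14 and 55.0% were positive. The groups overlapped in 12 of the 16. RN7SL1, the RNA of the signal recognition particle, held 1259 and 1082 rpm in Brg1, 2478, 1933 and 4203 in IgG, with input at 25673 and 32888. RN7SK, which holds the elongation factor P-TEFb inactive, held 2126 and 1978 in Brg1, 2072, 1402 and 4274 in IgG, with input at 15624 and 15418. RPPH1, the RNA of ribonuclease P, held 552 and 488 in Brg1, 189, 404 and 389 in IgG, with input at 4500 and 4235. IgG was above Brg1 for RN7SL1, Brg1 above IgG for RPPH1, and the groups overlapped for RN7SK. RN7SL1 has near-identical copies, among which the authors' counting could have split its reads.

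Messenger RNAs of the translation machinery leaned towards IgG without passing the test. Of 83 plain rows of cytoplasmic ribosomal proteins, 26 (31.3%) had all IgG libraries on top and 1 (1.20%) had both Brg1 libraries on top, beside 15.1% and 5.03% of all plain rows. In limma none was called, 5 had an unadjusted p under 0.05, and the median difference was -0.46 beside 0.14 for all plain rows. RPLP1, of the ribosomal stalk, held 77.0 and 85.5 rpm in Brg1, 160, 287 and 342 in IgG, with input at 645 and 615 (difference -1.62, SE 0.52). TPT1, which encodes the translationally controlled tumour protein, held 90.9 and 106 in Brg1 and 230, 210 and 200 in IgG. SFPQ, whose protein was the target of the other antibody, held 480 and 524 in Brg1, 342, 206 and 344 in IgG, with input at 452 and 449. GAPDH held 416 and 511 in Brg1 and 435, 419 and 868 in IgG, and ACTB held 603 and 743 in Brg1 and 510, 297 and 845 in IgG. Both of these housekeeping messengers overlapped between the groups.

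None of the rows of histones (61), SR and hnRNP splicing factors (75), glycolysis and cytoskeleton (34), immediate early genes (16), snoRNA hosts (18), other remodellers (50) or zinc finger genes (410) was called. At an unadjusted p under 0.05 there were 6, 4, 1, 0, 2, 1 and 14 of them in limma, beside 568 of all 17464 compared rows. Their median differences were 0.82, 0.30, 0.38, -0.06, -0.03, 0.06 and 0.56, beside 0.54 for all rows. These lists mix plain and .primary rows, whose medians over all rows were 0.14 and 0.83. In the same order, the plain rows of the lists had medians of 0.83, 0.17, 0.36, -0.13, -0.58, -0.20 and 0.26. Their .primary rows had medians of 0.58, 0.54, 0.56, 0.02 (1 row), 1.49, 0.59 and 0.83. HIST1H2BD, a histone H2B gene, held 178 and 251 rpm in Brg1 and 162, 0 and 0 in IgG, so the spread within IgG was as wide as the gap between groups. SRCAP, the ATPase of a further remodelling complex, held 169 and 190 in Brg1 and 357, 487 and 342 in IgG, with a difference of -1.12 (SE 0.47). ZNF664 held 28.5 and 36.9 in Brg1 and 81.1, 205 and 238 in IgG (adjusted p = 0.728).

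After SMARCA4, the rows on the Brg1 side with the smallest p were .primary rows, and none passed. HNRNPD.primary (chromosome 4, 82352498 to 82373991), of the gene for the RNA-binding protein AUF1, held 201 and 181 rpm in Brg1 and 42.9, 24.0 and 30.6 in IgG, with input at 64.1 and 65.5. The groups were well apart, with a difference of 2.56 (SE 0.64), and the adjusted p was 0.351. LIMD1.primary, of a LIM-domain adaptor gene, held 155 and 157 in Brg1 and 24.6, 25.1 and 69.3 in IgG, a difference of 2.12 (SE 0.68). SH3PXD2A.primary, of a podosome scaffold gene, held 453 and 465 in Brg1 and 191, 77.1 and 136 in IgG, and TEAD1.primary, of a Hippo pathway transcription factor gene, held 494 and 485 in Brg1 and 299, 119 and 108 in IgG. CMSS1.primary held 728 and 670 in Brg1 and 83.2, 2.85 and 269 in IgG, where IgG B was far below the other two. MACROD1.primary, EPN2.primary and ZBTB16.primary had differences of 1.70, 1.71 and 1.66.

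The 5078 rows left out were chosen for fewer than 30 IgG reads, so their low share in the larger IgG libraries follows from the rule. They held 5.62% and 5.67% of Brg1 reads, and 0.452%, 0.471% and 4.98% of reads in IgG A, B and C. For 477 of them no IgG library had a read. TMEM110-MUSTN1.primary, of a read-through gene, had a mean of 95.8 ± 7.52 rpm in Brg1 (SD, n = 2) and no IgG read. A count of 0 allows up to 0.678, 1.71 and 6.11 rpm in IgG A, B and C (3 reads). These limits cover counting error only, and no fold is given for rows chosen by their low IgG reads. TNFAIP8L3.primary had a mean of 84.8 ± 1.15 in Brg1 and no IgG read. That row split other pairs of libraries, with 23.0 and 0.0624 in input A and B and 22.6 and 0.136 in Sfpq A and B. At the edge of the rule, 66 rows had 29 IgG reads and a median Brg1 share of 9.48 rpm, and 69 rows had 30 IgG reads and a median of 10.5.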

How the data were processed

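The deposited values are a signal: normalised counts that the authors scaled by 1 factor per library. Per the submitters' processing notes, STAR 2.6, Salmon 0.8.2, deepTools 2.5.2, DESeq2 and hg38 were used, in roles not given there. Dividing each column by its smallest positive value gave whole reads for 100% of values within 0.001 read. Shares, in rpm, used the sum of all 22542 rows. No row carries an ERCC spike-in name, so spike-ins were not used here. Positions are RefSeq gene bounds, and 12851 of 14296 gene names matched.

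The test was limma 3.58.1 (R 4.3.3) with a variance trend on log2(rpm + 1), on 5 libraries with no covariate, adjusted over 17464 rows; it was tested on simulated data. Every p without a named test is from it. Alternatives were other pseudocounts, filters and scalings, limma-voom, edgeR 4.0.16, DESeq2 1.42.0, a replicate block and leaving out each library. Named rows were 10 per direction by size or p, at 20 rpm or more and with groups apart, a short fixed list, and 2 at each end of every gene list; ARID1A, ARID1B, SMARCA2, SMARCC1, SS18, BCL11B.primary, FTO, WWOX, KCNQ1OT1, TUG1, RPPH1, SCARNA2, MT-CO1 and MT-RNR2 were chosen after their values were seen. The members and lists were chosen with earlier results of these data known. The prostate and marker counts omit 1 gene that is not reported here, and 1 further row that met the naming rule is not reported.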

Additional observations from a re-analysis of the deposited data

Results flagged for a closer look

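Of 71 compared rows that are named here or led either direction and are in the LNCaP table, 7 lay on opposite sides in the 2 cell lines, with no overlap in either. Among all compared rows found in the LNCaP table this held for 317 of 2421 rows with Brg1 on top in 22Rv1 (13.1%) and for 677 of 1470 with IgG on top (46.1%). Whatever their side in 22Rv1, 1495 of the 15593 compared rows in that table (9.59%) had IgG on top in LNCaP. Brg1 was on top there in 7564 of the 15593, so the 46.1% lies near the share of all rows. Brg1 was on top in 22Rv1 and IgG in LNCaP for 3 of the 7. SH3PXD2A.primary had a log2 difference of 1.85 in 22Rv1 and -1.84 in LNCaP, where Brg1 held 31.9 and 36.4 rpm and IgG 90.2 and 173. TEAD1.primary had a difference of 1.64 in 22Rv1 and -0.288 in LNCaP, where Brg1 held 165 and 218 and IgG 225 and 238. KCNQ1OT1 had a difference of 1.29 in 22Rv1 and -0.737 in LNCaP. The LNCaP IgG values came from 2 and 8 reads for SH3PXD2A.primary, from 5 and 11 for TEAD1.primary and from 13 and 19 for KCNQ1OT1.

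IgG was on top in 22Rv1 and Brg1 in LNCaP for the other 4. The LNCaP differences were 0.757 for ARID1A, 3.08 for MT-TH, 5.07 for ZNF664 and 6.84 for AC006504.7.primary. MT-TH and ZNF664 had no IgG read in LNCaP, where a count of 0 allows up to 135 and 64.8 rpm, and their Brg1 shares there (9.11 and 6.06, and 41.8 and 25.3) were below both limits, so no difference was detectable at this depth. AC006504.7.primary had 0 and 2 IgG reads there. Each line has its own table with its own scaling, and the difference between them was not tested. No group held 4 or more samples, so single samples were not examined for standing apart.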

How the results depend on the processing

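The counts of rows called (1 higher and 29 lower) moved with the test and with single libraries, and the cause was not tested. Requiring 100 IgG reads gave 19 lower, and no filter gave 1518 higher, 1516 of them rows otherwise left out, and 48 lower. Totals without the 10 top rows gave 0 higher and 28 lower among 17454 rows. Those 10 rows, SMARCA4 among them, were also left out of that test, so SMARCA4 could not be called in it. Fitting all 4 groups gave 2 higher, limma-voom 66 lower, DESeq2 2 higher and 72 lower, and edgeR (library totals or TMM) and limma without the trend 0 and 0. Leaving out 1 library gave 0 to 917 higher and 0 to 80 lower. The difference in .primary share ran from 3.20 to 14.9 points over the same omissions.

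With the replicate block 39 rows were higher and 56 lower. Whether the letters pair the samples is not given in the labels and could not be decided here. Deviations of same-lettered libraries correlated at 0.0494 (A) and -0.0408 (B), and the pairs number 2. With 2 Brg1 libraries the Brg1 deviations mirror each other, so these values say little about pairing. IgG C has no Brg1 partner, so the blocked values rest on A and B.

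Of 72 compared rows that the text names or that led either direction, the sign reversed for 7 under at least 1 alternative, none of them called. SMARCC1, at 0.018, turned to -0.15 (median-of-ratios), -0.063 (quantile), -0.074 (edgeR, totals) and -0.27 (DESeq2), with -0.375 (IgG A) to 0.25 (IgG B) over the omissions. NEAT1 turned to 0.25 (quantile) and 0.21 (shares within row class), and leaving out 1 library gave -0.47 (IgG C) to 0.062 (IgG B). RN7SK turned to 0.34 (quantile), 0.16 (within row class) and 0.27 (replicate block), with -0.54 (IgG B) to 0.27 (IgG C) over the omissions. RMRP turned to -0.11 (median-of-ratios) and -0.11 (DESeq2), with -0.14 (Brg1 A) to 0.25 (Brg1 B). GAPDH turned to 0.11 (within row class) and 0.11 (replicate block), with -0.41 (IgG B) to 0.11 (IgG C). GAPDH.primary turned to -0.75 (quantile), -0.79 and -0.73 (edgeR, totals and TMM), -0.96 (DESeq2) and -0.95 (replicate block), with -0.95 (IgG C) to 1.87 (IgG A). SFPQ.primary turned to -0.14 (replicate block), -0.16 (voom) and -0.0353 (DESeq2), with -0.14 (IgG C) to 0.69 (IgG A). Depth limits the IgG side most, where 1 read of IgG C is 2.04 rpm.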

Other observations

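HOXA-AS3.primary, left out of the comparison for want of IgG reads, split both the Brg1 and the input pair. It held 213.8 and 0.420 rpm in Brg1 A and B, from 10161 and 19 reads, and 0.188 and 148 in input A and B. The Sfpq libraries held 0.560 and 0.272 and the IgG libraries no read. It had the highest mean Brg1 share of the rows left out, and no value here bears on its source.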
